A study of Rattus norvegicus with 23 samples.

Results

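The endothelin and angiotensin systems are represented here by 10 genes, Edn1, Edn2, Edn3, Ednra, Ednrb, Ece1, Agt, Ace, Agtr1a and Agtr2, out of 16544 genes with a named probe on the array. The genes were listed by name and found through the RefSeq accession of each probe, which gave 12 of 45440 probes. RNA of male Wistar rats was hybridized to 23 single-color Agilent SurePrint G3 rat arrays, and the study compared the expression profiles of cardiac regions and great vessels. The 6 regions were the left atrium (LA, 4 arrays), taken next to the pulmonary vein, a mass of the left ventricle (LV, 4 arrays), the right ventricular free wall (RV, 3 arrays), the sinoatrial node region (SA, 4 arrays), the pulmonary vein (PV, 4 arrays) and the pulmonary artery (PA, 4 arrays). The labels name no drug and no transgene for any region. In all 12 rats aged 8 to 11 weeks were used, and each SA sample held the tissue of 2 rats. The labels do not tie arrays to animals, and the study's methods cut an LV mass into 3 pieces. With 23 arrays from 12 rats some arrays share animals, and the main fit treats all arrays as independent. The p-values therefore measure the spread between these arrays, which may in part be technical. The LV and RV together are called V below. In differences V is the mean of the LV mean and the RV mean. In the F-test over LA, V and SA and in the specificity measure, the LV and RV arrays are pooled.

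Endothelins are short vasoactive peptides that are secreted as precursors and cut to their active form by endothelin converting enzymes, of which Ece1 is the main one. They act on the type A receptor (Ednra), found mostly on smooth muscle and cardiac myocytes, and on the type B receptor (Ednrb), found mostly on endothelium. Angiotensinogen (Agt) is cut to angiotensin I, which angiotensin converting enzyme (Ace), an enzyme of the endothelial surface, turns into angiotensin II. Angiotensin II constricts vessels and acts on the heart through the type 1 receptor, which rodents encode in a pair of closely related genes (Agtr1a and Agtr1b), and through the type 2 receptor (Agtr2). In the heart and great vessels both systems are known for the control of vascular tone, contractility and the growth of connective tissue.

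All levels are log2(normalized signal + 1) of the brightest probe of a gene on each array, and a level is compared between regions only, never between genes. A probe counts as measured on an array where the scanner software called it well above background, which held for 58.5% to 79.7% of probes on an array. Of the 10 genes, 7 (Edn2, Ednra, Ednrb, Ece1, Agt, Ace and Agtr1a) were well above background on all 23 arrays and Edn1 on 22. Agtr2 was well above background on 1 array and Edn3 on 0, and Edn3 was the 1 member that did not pass the filter for testing (a level above 4 on at least 1 array). The labelled regions carried their markers. The atrial myosin-binding protein gene Mybphl lay between 17.01 and 17.80 on the LA, SA and PV arrays and at or below 10.28 elsewhere. The smooth muscle myosin gene Myh11 lay between 17.24 and 17.70 in PA and at or below 14.16 elsewhere. The pacemaker channel gene Hcn4 had its highest mean in SA (10.34 ± 0.16, SD, n = 4). RV replicate 2 stood apart from the other RV arrays in Mybphl (9.09 against 6.49 and 6.63) and in the adipocyte gene Adipoq (7.79 against 4.97 and 4.79), and PA replicate 1 from the other PA arrays in Mybphl (10.28 against 6.13 to 7.26). Results that rest on either array are given with and without it. Slide and row were read as successive fields of the barcode in the file headers. On this reading arrays lay on 3 slides in 2 rows, and row 1 had more probes well above background (72.6% to 79.7%) than row 2 (58.5% to 69.3%). The 26 differences between regions called below kept their direction in 77 of 78 comparisons within a slide and 51 of 52 within a row. These comparisons reuse the arrays that gave the calls, some with 1 array on each side, so they are not separate evidence.

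**Figure D1:**
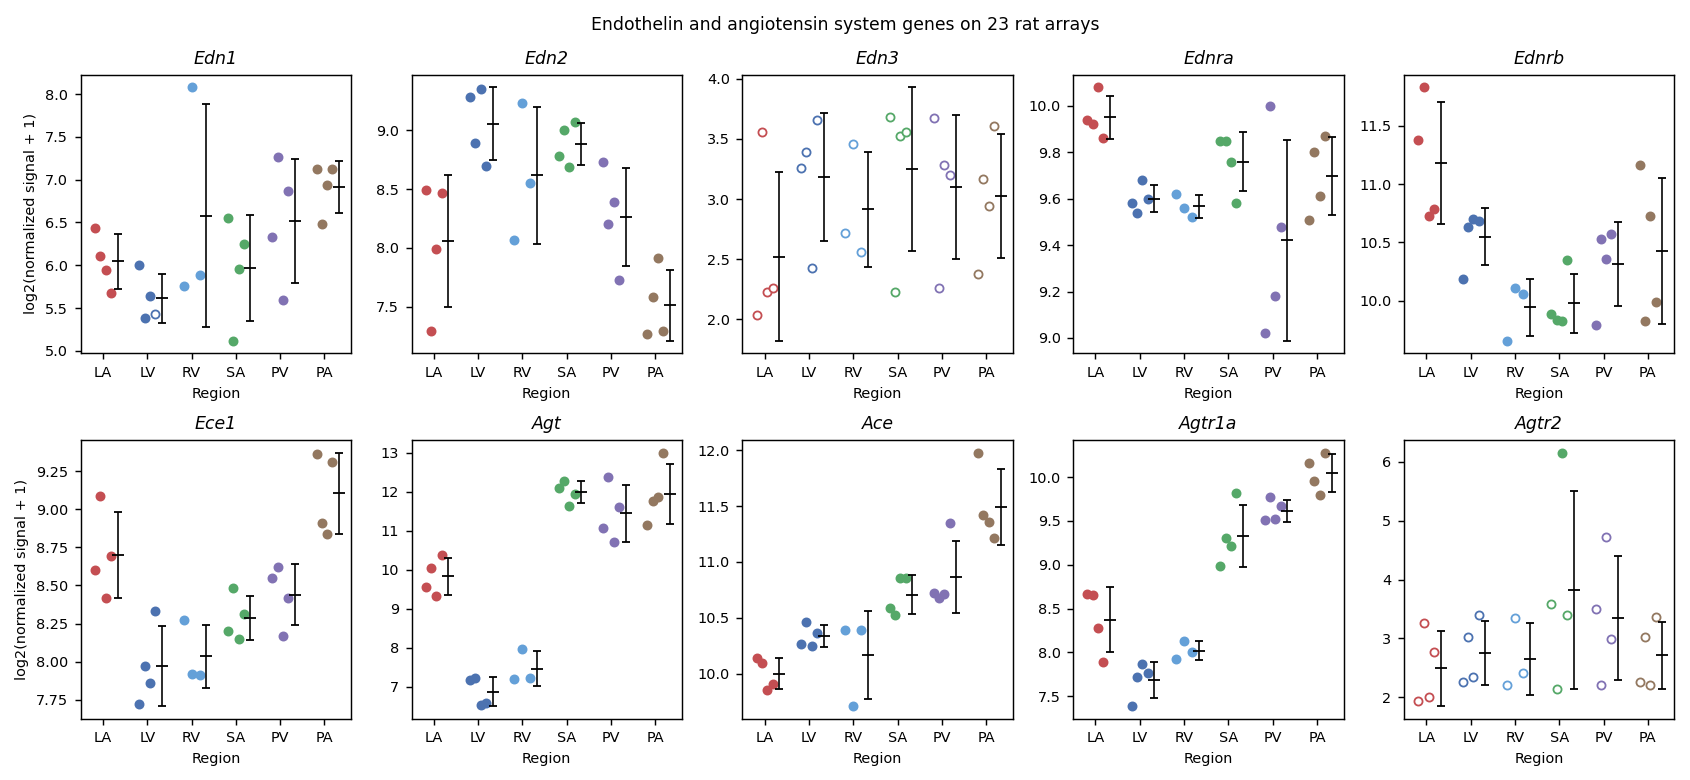
Log2(normalized signal + 1) of the 10 genes on each of 23 arrays, by region; filled points are well above background, open points are not, and the bar gives the mean ± SD of the region. Agt spans the widest range, from 6.53 in LV to 13.01 in PA, and Edn3 and Agtr2 stay near background apart from 1 SA array for Agtr2.

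Tested over all 6 regions, 6 of the 9 tested members differed (Edn2, Ednrb, Ece1, Agt, Ace and Agtr1a; limma F-test, adjusted p below 0.05), where 64.4% of all 16089 genes tested did. Over LA, V and SA, the 3 cardiac regions set against each other in the study, 7 of 9 differed, against 40.5% of 15809 genes, and Ednra was the added gene. Members are therefore described below by direction and size.

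Edn1 encodes the endothelin made chiefly by endothelial cells. Its levels in PA were 7.12, 6.48, 6.94 and 7.13 (mean 6.92 ± 0.30, SD, n = 4), the highest regional mean. They overlapped those of PV (6.33, 7.27, 5.59 and 6.87). In RV, replicate 2 stood at 8.08, the highest Edn1 level of all 23 arrays, and the other RV arrays at 5.76 and 5.89. In LV the levels were 6.0, 5.38, 5.64 and 5.43, the lowest regional mean (5.61 ± 0.29), and the last of these was not well above background. LA (6.04 ± 0.32) and SA (5.97 ± 0.62) lay between LV and PV. The difference of PA from the mean of the other 5 regions was 0.77 ± 0.34 (SE; adjusted p = 0.0571 by limma), and it did not pass the test. Without RV replicate 2 it was 0.92 and did pass (adjusted p = 0.00381), as it did without PV replicate 2 or SA replicate 1. Between neighbours in the order PA, RV, PV, LA, SA, LV no difference exceeded the spread (adjusted p from 0.568 to 0.944). PA was above LV by 1.31 (adjusted p = 0.0146 by limma), a pair picked as the highest and lowest of the 6 means. That p-value is not adjusted for this choice, and Edn1 did not pass the F-test over the 6 regions (adjusted p = 0.111).

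Edn2, which encodes a closely related endothelin, had its lowest mean in PA and its highest in LV. Its levels in PA were 7.27, 7.58, 7.91 and 7.29 (7.51 ± 0.30), and in LV 9.28, 8.89, 9.35 and 8.70 (9.06 ± 0.31). The PA and LV arrays did not overlap. The SA arrays were tightly grouped (8.78, 9.0, 8.69 and 9.07), RV held 8.07, 9.23 and 8.55, PV 8.73, 8.20, 8.39 and 7.73, and LA 8.49, 7.29, 7.99 and 8.47. PA was lower than the mean of the other 5 regions by 1.07 ± 0.22 (SE, a 2.1-fold difference, adjusted p = 0.000241), although LA replicate 2 and PV replicate 4 lay inside the PA range. Edn2 was also lower in PA than in PV (-0.76 ± 0.28, adjusted p = 0.0279) and lower in LA than in V (-0.78 ± 0.25, adjusted p = 0.0188). The PA against PV call was lost without PA replicate 1 (-0.67, adjusted p = 0.0742), PA replicate 4, PV replicate 1 or PV replicate 3, and within slide 2 the 1 PA array was above the 1 PV array by 0.17. The LA against V call was lost without RV replicate 2 (-0.62, adjusted p = 0.0518) or without LA replicate 2. Each step between neighbours in the order LV, SA, RV, PV, LA, PA was within the spread (adjusted p from 0.109 to 0.725). Edn3, which encodes the endothelin that neural crest cells depend on, lay between 2.04 and 3.68 on the 23 arrays and was well above background on none, so it has no order.

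Ece1 cuts the endothelin precursors. Its levels in PA were 9.36, 8.91, 8.84 and 9.31 (9.10 ± 0.27), followed by LA with 8.60, 9.09, 8.42 and 8.69 (8.70 ± 0.28). The ventricles were lowest, with 7.72, 7.97, 7.86 and 8.33 in LV and 8.27, 7.92 and 7.91 in RV. Every PA array lay above every array of PV, SA, LV and RV, and LA replicate 2 lay inside the PA range. PA exceeded the mean of the other 5 regions by 0.82 ± 0.13 (1.76-fold, adjusted p = 1.2e-05) and PV by 0.66 ± 0.16 (adjusted p = 0.00184). LA exceeded V by 0.70 ± 0.15 (1.62-fold, adjusted p = 0.000817), without overlap between the arrays. In the order PA, LA, PV, SA, RV, LV, only the first step passed the test (PA over LA by 0.41, adjusted p = 0.044).

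Ednra, the type A endothelin receptor, varied least of the measured members (SD 0.25 over the 23 arrays). LA stood at 9.94, 9.92, 10.08 and 9.86 (9.95 ± 0.09), and LV at 9.58, 9.54, 9.68 and 9.60 (9.60 ± 0.06), close to RV at 9.62, 9.56 and 9.52. All LA arrays lay above all ventricular arrays, and the difference of LA from V was 0.37 ± 0.13 (1.29-fold, adjusted p = 0.0337). PV was spread widely, with 9.02, 10.00, 9.18 and 9.48, and lay below LA by 0.53 ± 0.15 (adjusted p = 0.0191). Both calls depended on few arrays. The LA against V difference kept its size without RV replicate 2 (0.37) but not its call (adjusted p = 0.0522), and it was also lost without LA replicate 1, 2 or 3, LV replicate 2 or RV replicate 3. The PV against LA call was lost without PV replicate 1, PV replicate 3 or LA replicate 3, and within row 1 the 1 PV array exceeded the mean of 3 LA arrays by 0.04. PA (9.70 ± 0.17) differed from the mean of the other regions by 0.04, with a 95% interval from -0.20 to 0.28.

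Ednrb, the type B receptor, was highest in LA, with levels of 11.38, 11.83, 10.73 and 10.79 (11.18 ± 0.52). SA stood at 9.89, 9.84, 9.83 and 10.35 (9.98 ± 0.25), and RV at 9.66, 10.11 and 10.06 (9.94 ± 0.25), both below every LA array. LV held 10.19, 10.63, 10.70 and 10.68, and PV 9.79, 10.53, 10.36 and 10.57. PA was the most variable region, with 11.16, 9.83, 10.73 and 9.99. SA was lower than LA by 1.21 ± 0.28 (2.31-fold, adjusted p = 0.00607), and LA exceeded V by 0.94 ± 0.25 (1.91-fold, adjusted p = 0.00579). PV was lower than LA by 0.87 ± 0.28 (adjusted p = 0.0446), a call lost in 14 of 23 fits that left out 1 array (LA replicate 1 or 2, LV replicate 2, 3 or 4, RV replicate 2 or 3, SA replicate 1, 2 or 3, or any PV array). A second Ednrb probe gave the same calls for SA against LA, LA against V and PV against LA (-0.93 ± 0.26 for the last, adjusted p = 0.0223). For PA against the other 5 regions the brighter probe gave 0.04 and the second -0.41, neither past the test. Between neighbours in the order LA, LV, PA, PV, SA, RV no step passed the test (adjusted p from 0.0924 to 0.959). Mesothelial markers also separated LA from the other regions: the summed signal of 4 markers lay between 22538 and 27743 in LA and between 768 and 12740 elsewhere, all 4 were lower in SA and in PV than in LA, and their part in the Ednrb difference was not tested. The summed signal of 9 endothelial markers, which weights bright genes such as Vwf and Kdr, ranged from 42780 to 56029 in LA, 44125 to 51434 in SA and 85002 to 90460 in LV. Single markers differed in this: Tek, an endothelial receptor kinase, was lower in SA than in LA by 0.95 ± 0.21 (adjusted p = 0.00475), and Pecam1 had means of 13.51 in LA and 12.95 in SA (adjusted p = 0.0577). In SA against LA, 1 of the 9 was lower and 0 higher, and in LA against V 5 were lower and 0 higher. Their part in the Ednrb difference was not tested.

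Agt, the substrate of the angiotensin system, differed more between regions than any other member. Its levels in LV were 7.17, 7.22, 6.53 and 6.59 (6.88 ± 0.37), and in RV 7.19, 7.98 and 7.23 (7.47 ± 0.44). LA stood well above both with 9.57, 10.04, 9.33 and 10.38 (9.83 ± 0.47). The SA arrays read 12.10, 12.29, 11.63 and 11.94 (11.99 ± 0.28), the PV arrays 11.08, 12.39, 10.72 and 11.62 (11.45 ± 0.73), and the PA arrays 11.14, 11.76, 11.87 and 13.01 (11.94 ± 0.78). The ventricular arrays, the LA arrays and the arrays of SA, PV and PA together formed 3 ranges without overlap. SA exceeded V by 4.81 ± 0.33, a 28.1-fold difference (adjusted p = 1.42e-09), and LA by 2.16 ± 0.37, a 4.47-fold difference (adjusted p = 0.000583). LA exceeded V by 2.66 ± 0.33 (6.3-fold, adjusted p = 3.14e-06), and PV exceeded LA by 1.62 ± 0.37 (3.08-fold, adjusted p = 0.00586). PA was above the mean of the other 5 regions by 2.42 ± 0.29 (5.35-fold, adjusted p = 3.98e-07), the mean being held down by the ventricles, since PA and SA differed by 0.05 with an interval from -0.73 to 0.83. The order was SA, PA, PV, LA, RV, LV, and the steps from PV to LA and from LA to RV (2.36, adjusted p = 0.000176) were beyond the spread. In bulk tissue, fewer cells of a type and less RNA of a gene per cell cannot be told apart.

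Some adipocyte markers moved with Agt. Erythroid markers rose with it in LA, SA and PV but were not called in PA. Adipoq, the adiponectin gene, lay between 3.02 and 4.77 in LV, with 0 of 4 arrays well above background, between 4.79 and 7.79 in RV, 6.82 and 9.06 in LA, 9.01 and 10.26 in SA, 8.38 and 10.88 in PV and 10.66 and 11.63 in PA. Ucp1, the uncoupling protein of brown fat, had means of 4.24 in LV, 4.32 in RV and 5.44 in LA against 12.18 in SA, 10.31 in PV and 12.51 in PA. Of 4 adipocyte markers on the array, 2 were higher in SA than in V, 1 in LA than in V, 2 in PV than in LA and 0 in SA than in LA by limma, where Lep, the leptin gene, had its lowest mean in SA (5.21 ± 0.47). Of 3 brown adipocyte markers 3, 1, 2 and 2 were. In PA against the other 5 regions, 3 of 4 adipocyte markers were higher and 0 lower. Of the 3 brown adipocyte markers 2 were higher there and 1 lower, where 31.4% and 27.7% of all genes were. Of 3 erythroid markers, 3 were higher in SA and 3 in LA than in V, and 2 in PV and 2 in SA than in LA, while 0 were called in PA against the other 5 regions by limma. The beta-globin gene Hbb had means of 11.14 in SA, 10.55 in PV, 8.80 in PA and in LA, 7.32 in LV and 6.26 in RV. The summed adipocyte signal, which is dominated by Cfd, ranged from 3362 to 7785 in SA and from 3436 to 4503 in LV, and the summed brown adipocyte signal from 10526 to 20490 in SA and from 4030 to 5837 in LV. In PA the summed brown adipocyte signal ranged from 5256 to 14043, which overlapped that of LV. The summed erythroid signal ranged from 74457 to 143412 in SA and from 9580 to 17385 in LV. The part of these cell types in the Agt differences was not tested. The 3 genes whose pattern was most like that of Agt over the 23 arrays, among 13096 genes well above background throughout at least 1 region, were Rbp4 (retinol-binding protein), Retn (the adipokine resistin) and Gys2 (a glycogen synthase). Their root mean square differences from Agt, each gene centred on its own mean, were 0.89, 0.91 and 0.95 on the log2 scale, where Agt itself had an SD of 2.16. They did not share the full order of Agt. Rbp4 was at 12.11 ± 0.19 in PA and 10.23 ± 0.41 in SA, while Agt was as high in SA as in PA. In LA, replicate 4 had the highest Agt level (10.38) and the lowest Adipoq level (6.82) of the 4 arrays.

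**Figure D2:**
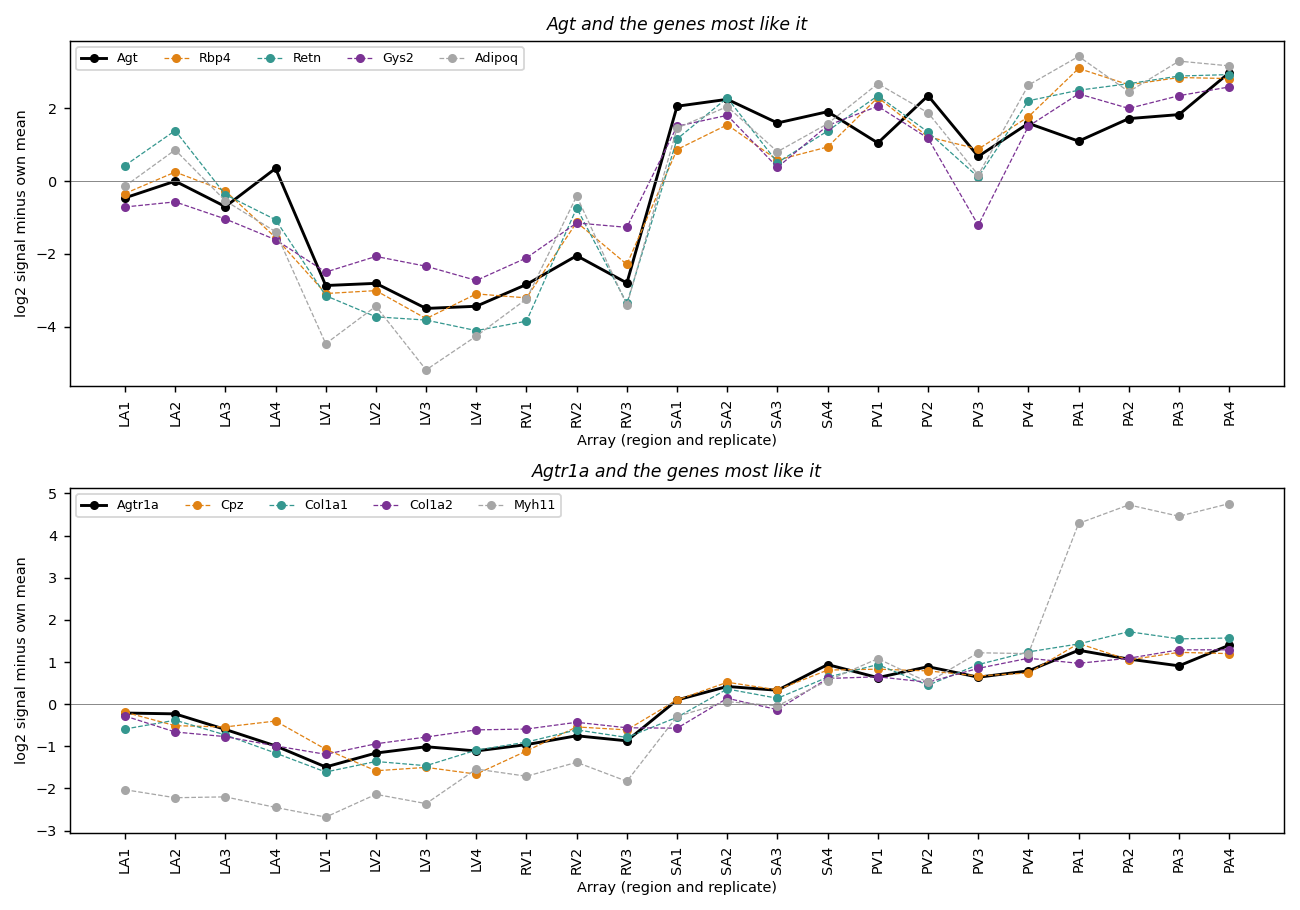
Log2 signal of Agt (top) and Agtr1a (bottom) and of the 3 genes most like each, minus the gene's own mean over the 23 arrays, for each array in order of region and replicate; Adipoq and the smooth muscle gene Myh11 are added in grey. Agt rises from the ventricles through LA to SA, PV and PA, and Agtr1a follows Cpz, Col1a1 and Col1a2 within root mean square differences of 0.27 to 0.32, while Myh11 departs from it in PA.

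Ace makes angiotensin II. It was highest in PA, with 11.98, 11.42, 11.36 and 11.21 (11.49 ± 0.34), followed by PV with 10.72, 10.68, 10.71 and 11.35 (10.87 ± 0.32) and SA with 10.59, 10.52, 10.86 and 10.86 (10.71 ± 0.18). LV stood at 10.26, 10.46, 10.25 and 10.36, RV at 10.39, 9.71 and 10.39, and LA at 10.14, 10.09, 9.85 and 9.91 (10.0 ± 0.14). All arrays of SA, PV and PA lay above all arrays of the chambers. PA exceeded the mean of the other 5 regions by 1.08 ± 0.14 (2.11-fold, adjusted p = 1.23e-06) and PV by 0.63 ± 0.18 (1.54-fold, adjusted p = 0.00613), with PV replicate 4 inside the PA range. PV exceeded LA by 0.87 ± 0.18 (adjusted p = 0.00281) and SA exceeded LA by 0.71 ± 0.18 (adjusted p = 0.0108). SA exceeded V by 0.46 ± 0.16 (adjusted p = 0.0376), which fell to 0.35 and was lost without RV replicate 2 (adjusted p = 0.0961), and was also lost without LV replicate 1 or 3 or SA replicate 1, 3 or 4. LA and V differed by -0.25, with an interval from -0.59 to 0.09. A second, dimmer Ace probe gave the same direction for PA (0.65 ± 0.25, adjusted p = 0.0286) and for PV against LA (0.88 ± 0.31, adjusted p = 0.0793), the latter not past the test. Nor did it pass for PA against PV (0.3, adjusted p = 0.456), SA against LA (0.76, 0.124) or SA against V (0.26, 0.566). On the dimmer probe the LV mean (8.44) lay above those of PV (8.4) and SA (8.29). The order and the separation from the chambers are therefore those of the brighter probe. In the order PA, PV, SA, LV, RV, LA, the first step alone passed the test. Of 9 endothelial markers, 7 were lower in PA than in the other regions and 0 higher, where 27.7% and 31.4% of all genes were. Smooth muscle markers were higher there in 8 of 8, and fibroblast markers higher in 4 of 6 and lower in 1. The part of these cell types in the Ace differences was not tested.

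Agtr1a, the main type 1 angiotensin receptor of rodents, separated the vessels and SA from the chambers. Its levels in PA were 10.16, 9.95, 9.79 and 10.28 (10.05 ± 0.22), in PV 9.51, 9.77, 9.52 and 9.67 (9.62 ± 0.12) and in SA 8.98, 9.30, 9.21 and 9.82 (9.33 ± 0.35). In LA they were 8.67, 8.66, 8.28 and 7.89 (8.38 ± 0.37), in RV 7.92, 8.13 and 8.01 (8.02 ± 0.11) and in LV 7.39, 7.72, 7.87 and 7.77 (7.69 ± 0.21). The lowest SA array was above the highest LA array. PA exceeded the mean of the other 5 regions by 1.44 ± 0.14 (2.71-fold, adjusted p = 1.9e-08), SA exceeded V by 1.47 ± 0.16 (2.78-fold, adjusted p = 7.36e-07) and LA by 0.95 ± 0.18 (1.93-fold, adjusted p = 0.00124), and PV exceeded LA by 1.24 ± 0.18 (2.37-fold, adjusted p = 0.000112). LA exceeded V by 0.52 ± 0.16 (1.44-fold, adjusted p = 0.0146), with LA replicate 4 inside the ventricular range, and this call was lost without LA replicate 1 or without LA replicate 2. PA and PV differed by 0.43 ± 0.18 without passing the test (adjusted p = 0.0522), although their arrays did not overlap, and the difference passed when LA replicate 1, 2 or 4, LV replicate 1, PA replicate 3 or SA replicate 1 or 4 was left out. In the order PA, PV, SA, LA, RV, LV, the step from SA to LA was the 1 step beyond the spread. The genes most like Agtr1a over the 23 arrays were Cpz, a carboxypeptidase, and Col1a1 and Col1a2, the chains of type I collagen. Their root mean square differences were 0.27, 0.31 and 0.32, where Agtr1a had an SD of 0.92. Col1a1 and Col1a2 are fibroblast markers, and the summed signal of the 6 fibroblast markers on the array ranged from 144574 to 192799 in LV, 142207 to 246457 in LA, 183621 to 368090 in SA, 348880 to 521345 in PV and 600053 to 697961 in PA. Of these 6, 3 were higher in PV and 3 in SA than in LA, and 2 were lower in SA. In SA against V, 3 of the 6 were higher and 3 lower, and in LA against V, where Agtr1a was higher, limma called 0 of them. Of 8 smooth muscle markers, 8 were higher in PA than in the other regions, 6 in PV and 6 in SA than in LA and 6 in SA than in V, while in LA against V 0 were higher and 3 lower. The part of either cell type in the Agtr1a differences was not tested.

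Agtr2, the type 2 receptor, was well above background on SA replicate 3 alone (6.16), and read between 1.93 and 4.72 on the other 22 arrays. It passed the filter through SA replicate 3 and PV replicate 3, and no comparison between regions passed the test (adjusted p for the 6 regions = 0.407).

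**Figure D3:**
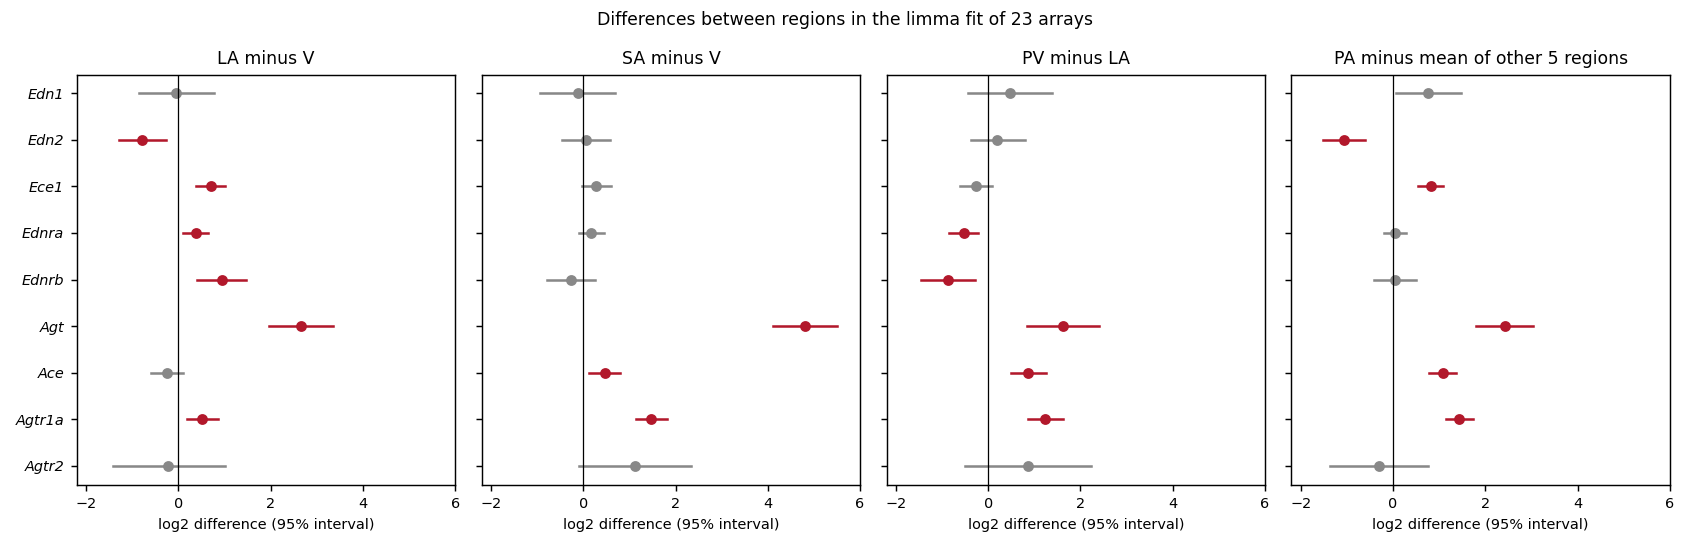
Log2 differences of the 9 tested genes for LA minus V, SA minus V, PV minus LA and PA minus the mean of the other 5 regions, with 95% intervals from the limma fit of 23 arrays; red marks an adjusted p below 0.05. Agt and Agtr1a are red and above 0 in all 4 panels, and Edn2 lies below 0 in the LA and PA panels.

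By comparison, PA was higher than the mean of the other 5 regions in 4 of 9 members (Ece1, Agt, Ace and Agtr1a) and lower in 1 (Edn2), against 31.4% and 27.7% of all genes tested, 59.1% in either direction. The median difference was 0.77 over the members and 0.05 over all genes. PA was higher than PV in 2 (Ece1 and Ace) and lower in 1 (Edn2), where 53.4% of all genes were called, 29.7% higher and 23.7% lower. PV was higher than LA in 3 (Agt, Ace and Agtr1a) and lower in 2 (Ednra and Ednrb), where 13.5% of all genes were called, 6.99% higher and 6.51% lower. SA was higher than LA in the same 3, Agt, Ace and Agtr1a, and lower in Ednrb, where 15.3% were called, 7.03% higher and 8.26% lower. These comparisons share the LA arrays. LA was higher than V in 5 (Agt, Ednrb, Ece1, Agtr1a and Ednra) and lower in 1 (Edn2), where 35.4% were called, 16.9% higher and 18.4% lower. SA was higher than V in 3 (Agt, Agtr1a and Ace) and lower in 0, where 28.1% were called, 12.3% higher and 15.8% lower. PV and SA differed in 0 of 9, where limma called 3.49% of all genes, and Edn2 (-0.62, interval -1.20 to -0.04) and Ednra (-0.34, interval -0.65 to -0.03) had an unadjusted p below 0.05. LV and RV differed in 0 of 9, where limma called 0.522%, and no member had an unadjusted p below 0.05. The interval for LV minus RV was -1.95 to 0.01 for Edn1, -0.02 to 1.24 for Ednrb and -1.44 to 0.25 for Agt with 4 and 3 arrays, so that differences within these intervals are not excluded. Without RV replicate 2 the Edn1 difference was -0.22 in place of -0.97.

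The specificity measure used in the study divides the mean log2 level of a region by the root of the summed squares over LA, V and SA. Agt had values of 0.576 in LA, 0.418 in V and 0.703 in SA, and Agtr1a of 0.567, 0.530 and 0.631. Ednrb leaned to LA with 0.615 against 0.566 and 0.549. The remaining measured members lay between 0.540 and 0.603 in each of the 3 regions.

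The RefSeq promoter table of build GRCr8 held 8 of the 10 genes and has no entry for Agt and Edn3. The sequences shown belong to the 3 entries whose genes were higher in PA than in the other regions. Each is the 250 bases before the start used in the promoter table, 5′ to 3′ on the strand of the gene. For Agtr1a this start lies inside the annotated gene, whose 5′ end is at base 34435523. Part of the Agtr1a window, with its TATA letters, is therefore inside the annotated gene. Capitals mark the TATA box, searched as TATAAA on both strands.
Ace, chr10:91409879-91410128, plus strand: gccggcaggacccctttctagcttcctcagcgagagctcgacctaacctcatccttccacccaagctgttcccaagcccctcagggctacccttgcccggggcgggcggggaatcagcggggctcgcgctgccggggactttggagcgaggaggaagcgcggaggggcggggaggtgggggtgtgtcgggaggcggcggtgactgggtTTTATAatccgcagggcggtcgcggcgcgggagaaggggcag
Agtr1a, chr17:34435433-34435682, minus strand: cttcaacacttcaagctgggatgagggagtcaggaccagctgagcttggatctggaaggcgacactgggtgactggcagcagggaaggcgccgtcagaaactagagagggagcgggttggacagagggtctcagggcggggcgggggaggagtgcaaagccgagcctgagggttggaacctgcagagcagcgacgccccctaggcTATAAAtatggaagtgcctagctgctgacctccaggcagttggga
Ece1, chr5:155360781-155361030, plus strand: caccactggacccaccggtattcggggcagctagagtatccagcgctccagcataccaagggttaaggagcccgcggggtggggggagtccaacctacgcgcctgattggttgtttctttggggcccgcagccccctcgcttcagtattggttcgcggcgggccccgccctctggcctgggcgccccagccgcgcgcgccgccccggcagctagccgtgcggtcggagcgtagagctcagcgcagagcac
Ace held the TATA letters on the opposite strand, 42 to 37 bases before the start, and Agtr1a on the strand of the gene, 45 to 40 bases before it, while these letters are not in the Ece1 window. Of all 33469 promoters in the table, 12.9% held the motif in this window. The GATA motif was searched as GATAA on both strands and is held by 23.5% of all promoters. The motif of AP-1, searched as TGANTCA, is held by 6.34%, the core of the hypoxia response element, searched as ACGTG, by 16.6%, and the CArG box of smooth muscle genes by 1.5%. None of these 4 had a match in the 3 windows. Among the other 5 windows Edn1 alone had matches, to GATA, to the hypoxia core and to the TATA box.

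The wider set of 24 enzymes, receptors and modulators of both systems was present on the array in full. In PA against the other 5 regions, 7 were higher, 6 lower and 11 not called, where 31.4% of all genes were higher and 27.7% lower. Agtr1b, the other type 1 receptor gene, read 9.61, 9.51, 9.74 and 10.30 in PA and between 2.20 and 6.19 elsewhere, with 7 of those 19 arrays well above background. The difference was 5.74 ± 0.42 (adjusted p = 2.86e-10), and 4.77 with each dim array set to its lowest measured signal. Among the other regions, PV read 3.41, 4.39, 3.23 and 2.98 in Agtr1b, with 1 of 4 arrays well above background. Agtr1a and Agtr1b are near copies, and whether the probe of either also bound RNA of the other was not tested. Ece2, a second converting enzyme, read 12.65, 12.73, 12.88 and 12.76 in PA and at most 10.57 elsewhere (3.19 ± 0.09, adjusted p = 1.95e-16). It was higher in PV than in LA too (0.64 ± 0.12, adjusted p = 0.0012).

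Enpep, the aminopeptidase that shortens angiotensin II, was lower in PA than in the other 5 regions (-2.46 ± 0.15, adjusted p = 1.29e-11), as was Cma1, mast cell chymase (-1.52 ± 0.24, adjusted p = 1.77e-05). Atp6ap2, an accessory subunit of the vacuolar proton pump (1.26 ± 0.10), Agtrap, a protein that binds the type 1 receptor (1.12 ± 0.08), and Lnpep, an aminopeptidase also called the angiotensin IV receptor (1.04 ± 0.10), were higher in PA, with adjusted p from 2.43e-10 to 1.41e-08. PV and SA were above LA in Cma1 (1.44 and 1.6) and in Mme, neprilysin (1.11 and 1.5), and below it in Enpep (-0.91 and -1.05). Of the 24 genes, 5 were higher and 5 lower in PA than in PV, where 53.4% of all genes were called. In PV against LA 5 were higher and 1 lower (13.5% of all genes called), and in SA against LA 3 and 3 (15.3%). In LA against V 2 were higher and 6 lower (35.4%), and in SA against V 2 and 3 (28.1%). In PV against SA 2 were higher and 0 lower by limma (3.49%), with 4 at an unadjusted p below 0.05, and in LV against RV 0 were called by limma (0.522%), with 6 at an unadjusted p below 0.05.

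**Figure D4:**
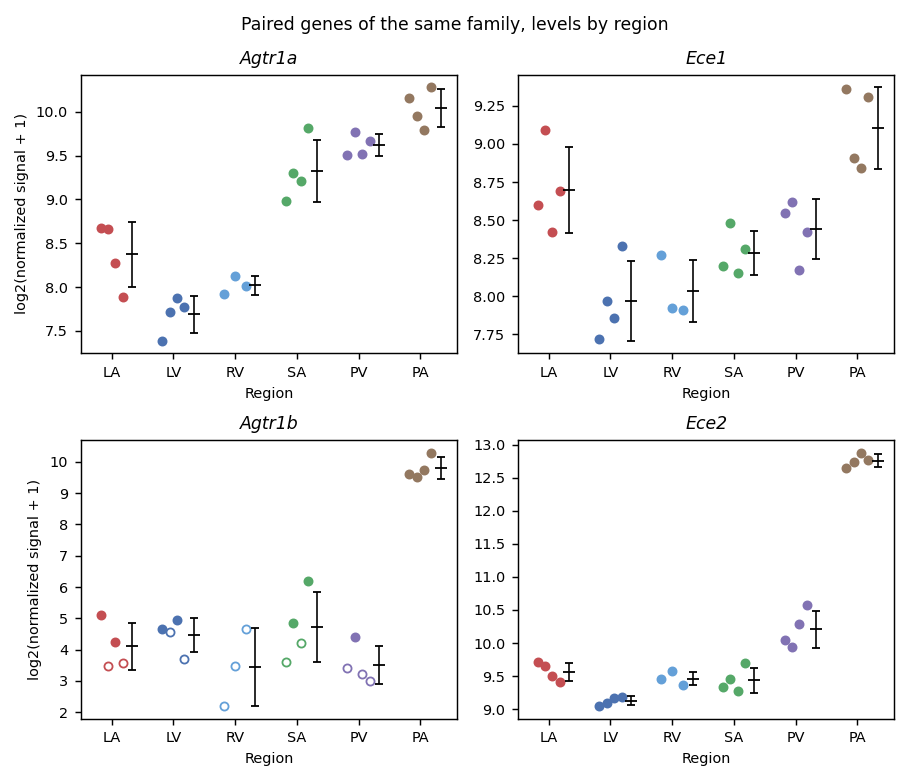
Log2(normalized signal + 1) on each of 23 arrays for Agtr1a and Agtr1b, and for Ece1 and Ece2, by region, with filled points well above background and bars for the mean ± SD. The 4 PA arrays stand above every other array in Agtr1b and in Ece2.

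The endothelin receptors and the type 1 angiotensin receptors signal through Gq and related G proteins, which release calcium through phospholipase C. Of 27 listed genes of this signalling, 24 were on the array, and in PA against the other 5 regions 14 were higher, 6 lower and 4 not called, where 31.4% of all genes were higher and 27.7% lower, with a median of 0.43 against 0.05 over all genes. The higher ones included Mylk, the myosin light chain kinase of smooth muscle (4.25), Rgs2, a brake on Gq (2.41), Itpr1, a calcium release channel (2.09), Plcb1, a phospholipase C (1.93), and Gnaq, the Gq subunit itself (1.29). The lower ones included Prkce, a protein kinase C (-0.78), and Grk2, a receptor kinase (-0.64). All 8 smooth muscle markers were higher in PA as well, with a summed signal from 514915 to 596483 against 33856 to 86746 elsewhere, and 6 of 6 cardiomyocyte markers were lower; their part in these differences was not tested. In PA against PV, 12 were higher and 3 lower, where 29.7% of all genes were higher and 23.7% lower. PV and SA differed in 0 by limma, where 3.49% of all genes were called, and 6 had an unadjusted p below 0.05. LV and RV differed in 0 by limma as well, where 0.522% of all genes were called, with 3 genes at an unadjusted p below 0.05. In LA against V, 4 were higher and 8 lower, where 16.9% and 18.4% of all genes were, among them Arrb1, a beta-arrestin (1.20), Rgs2 (1.05) and Itpr1 (1.29) on the higher side and Rgs5, a regulator found in pericytes (-1.5), and Trpc6, a cation channel (-1.09), on the lower. In PV against LA, Trpc6 (2.0), Mylk (1.69) and Rgs5 (1.13) were higher and Rgs2 lower (-1.15).

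For the other members, the nearest genes in pattern were Bst1, Mylip and Pecam1 for Ednrb (root mean square difference 0.35 to 0.37, own SD 0.55), Zfp260, Mras and Zbtb4 for Ece1 (0.20, own SD 0.45) and Pmm1, Phf19 and Ykt6 for Ace (0.25, own SD 0.56). For Edn2 they were Prrt1, 1700001K19Rikl and Prrg4 (0.21 to 0.28, own SD 0.65), for Ednra Abtb2, Taf9b and Tgs1 (0.17 to 0.18, own SD 0.25) and for Edn1 Sfr1, Arxes1 and Whamm (0.50 to 0.53, own SD 0.72). Pecam1, the endothelial adhesion molecule, is an endothelial marker, and its mean, like that of Ednrb, was highest in LA (13.51 ± 0.40). The lowest mean of Pecam1 was in SA (12.95 ± 0.06) and that of Ednrb in RV (9.94 ± 0.25). Pecam1 was not called in LA against V (0.12, adjusted p = 0.647 by limma). Among the 9 endothelial markers, 0 were higher and 5 lower in LA than in V, where 16.9% and 18.4% of all genes were. Edn3 and Agtr2 were not compared in this way because they were not well above background throughout any region.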

How the data were processed

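RNA of 6 regions of rat heart and great vessels was measured on 23 single-color arrays, grouped by the region in the labels. Per the file headers, Agilent Feature Extraction 11.0.1.1 gave each spot a background-subtracted signal intensity. The authors scaled these to a common 90th percentile, and the deposited normalized intensities are on a linear scale. Of 45596 deposited probes, 156 with a missing value were removed. Probes were named through RefSeq accessions (GRCr8 table), each gene took its brightest probe per array, as log2(intensity + 1), and genes above 4 on at least 1 array were tested, which left 16089. The scanner output also gave the calls above background; 0 spots were saturated. A limma 3.58.1 (R 4.3.3) fit of all 23 arrays, with a mean per region, gave 8 contrasts and an F-test, adjusted by Benjamini-Hochberg over all genes at 0.05. LA, V and SA were also compared by an F-test over 15 arrays. The fit was tested on simulated data. A 95% interval is that of the fit. The members, the gene lists and the markers were chosen with earlier results of these data known. All members are described; other listed genes were named where they passed the test and measured above background throughout the higher group, and markers where they move with a member. Alternatives covered the scanner signals at the 90th or 75th percentile or quantile normalized, normexp, a pseudocount of 16, filters, the probe rule, slide, row and replicate blocks, the arrays fitted, variance trend, the methods' analysis of variance and leaving out each array; 2 (a renumbered replicate block and dim arrays at the lowest signal above background) were added after seeing the data. Some of the other listed genes are counted but not reported here. No depth is counted on arrays, and their number limits the precision.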

Additional observations from a re-analysis of the deposited data

Results flagged for a closer look

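Within regions of 4 arrays, 50 sets of values were examined for an array far from the others, and 5 had a gap over range above Dixon's critical value of 0.829, which chance exceeds in about 1 in 20. PV replicate 4 was high in Ace (11.35, the nearest array at 10.72; ratio 0.941). LV replicate 1 was low in Ednrb (10.19 against 10.63; 0.865), and SA replicate 4 was high in Ednrb (10.35 against 9.89; 0.870). LA replicate 2 was high in Edn3 (3.56 against 2.26; 0.851) and SA replicate 2 low in Edn3 (2.23 against 3.52; 0.893), on arrays where Edn3 was not well above background.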

How the results depend on the processing

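Of the 26 called differences, 0 reversed in direction. Leaving out each array in turn gave 598 values, of which 37 lost the call, and 7 differences lost it at least once. In 15 other settings there were 390 values, of which 14 lost the call, over 7 differences. The setting with dim arrays at the lowest signal above background has no p-value. It could show a reversal only, and its values count among those that kept the call. Ednrb in PV against LA was lost most often (14 of 23 arrays, 7 of 15 settings). With normexp background correction SA against LA had 7 called members in place of 4, and with only the regions compared in the fit PV against LA had 3 in place of 5. Over the fits that left out 1 array, the called members numbered 6 to 7 for LA, V and SA, 6 to 7 for the 6 regions, 5 to 6 for PA against the other regions, 2 to 4 for PA against PV, 3 to 5 for PV against LA (3 without PV replicate 1 or PV replicate 3), 0 to 1 for PV against SA (1 without PV replicate 2), 4 to 5 for SA against LA, 3 to 6 for LA against V (3 without LA replicate 2), 2 to 4 for SA against V and 0 to 0 for LV against RV. Over all genes, normexp moved the higher and lower calls from 1131 and 1329 to 3170 and 1015 for SA against LA, from 1124 and 1048 to 1471 and 808 for PV against LA and from 2726 and 2965 to 2210 and 4791 for LA against V. The genes called in PV against SA went from 562 to 348 with normexp, to 67 with only the regions compared and to 176 to 298 without PV replicate 4 or SA replicate 1, 2 or 3. Those called in LV against RV went from 84 to 144 with a variance trend, to 137 with a filter on calls above background, to 13 with only those regions and to 41 to 52 without LV replicate 2 or RV replicate 1 or 2, and those in PV against LA from 2172 to 1264 with only the regions compared. The causes were not tested. With the replicate number as a block, the called members were 6 for LA, V and SA, 6 for the 6 regions, 5 for PA against the others, 3 for PA against PV, 4 for PV against LA, 0 for PV against SA, 4 for SA against LA, 6 for LA against V, 2 for SA against V and 0 for LV against RV; same-numbered arrays did not deviate together (55 pairs, median correlation -0.04, 12 over 0.1), and 4 of 23 arrays were nearest to one of their own number. Arrays of the same row were more alike (107 pairs, median 0.09). Signals near background limit Edn3, Agtr2 and Agtr1b outside PA.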
